A study of Rattus norvegicus with 36 samples.

Results

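miR-124 is made from a hairpin precursor whose opposite arms give the mature strands rno-miR-124-3p and rno-miR-124-5p, and these 2 names were followed here among the 861 miRNA names of a rat small RNA sequencing table. Both were chosen by name, with earlier results of these data known, and each has 1 entry in the table. The 36 libraries came from adult male Sprague-Dawley rats and formed 6 groups of 6: prefrontal cortex (PFC), nucleus accumbens (NAc) and blood serum, each from rats that self-administered heroin and from rats that self-administered saline. The rats were 8 weeks old on arrival, had 1 week of acclimation before a jugular catheter was implanted and 1 week of recovery after it, and then had 10 days of self-administration, and heroin was given at 0.075 mg/kg per infusion in sessions of 6 hours per day. Tissue and trunk blood were taken within 60 minutes of the last session. Brain libraries were made from total RNA of dissected tissue and serum libraries from RNA of an exosome kit, so tissue and extraction method changed together.

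miR-124 is known as a neuronal miRNA: it is transcribed as neurons differentiate, and the 3p strand is the one usually loaded into Argonaute. Known targets of miR-124-3p include Ptbp1, a splicing repressor of non-neuronal cells, and components of the REST pathway, which holds neuronal genes silent. The 5p strand is the partner that is usually discarded, and it is known at lower levels. Rat has 3 miR-124 loci in the RefSeq annotation of GRCr8. Mir124-1 overlaps the long non-coding RNA gene LOC102554677, with Msra and Kif13b as the nearest protein-coding genes. Mir124-2 overlaps LOC120100778, between Ythdf3 and Bhlhe22, and Mir124-3 overlaps no other annotated gene, between Bhlhe23 and Ythdf1. The table has 1 entry per mature arm, so the contribution of each locus was not analysed here.

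The depth decides what can be read for these arms. Total counts ran from 3419438 to 20773798 in PFC and from 5894542 to 24776772 in NAc, but from 157415 to 2777850 in serum. Levels are given as CPM, counts scaled to a library total of 1000000, without length correction, since a miRNA read is the whole molecule. In serum, 1 count was worth between 0.36 and 6.35 CPM, whereas in PFC it was worth at most 0.292 CPM. PFC saline replicate 8 stood apart from the other PFC libraries: its log2 profile correlated with theirs at a mean r of 0.88, and saline replicate 12 at 0.91. Several results that rest on these libraries are given with and without them.

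miR-124-3p was the higher arm in every brain library. In PFC of heroin rats its level was 1039, 1733, 611, 681, 477 and 832 CPM in replicates 1 to 6, with a mean of 896 ± 453 CPM (SD, n = 6). In PFC of saline rats it was 714, 3367, 1280, 960, 458 and 1260 CPM in replicates 7 to 12, with a mean of 1340 ± 1042 CPM (SD, n = 6). Saline replicate 8 lay far above all other libraries, and the ranges of both groups overlapped. In NAc of heroin rats the values were 368, 946, 754, 410, 664 and 787 CPM (655 ± 226, SD, n = 6). In NAc of saline rats they were 955, 1078, 1335, 864, 487 and 574 CPM (882 ± 316, SD, n = 6). In NAc, 5 of 6 heroin libraries lay below the saline median and 3 saline libraries lay above every heroin library, but both ranges overlapped.

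miR-124-5p was lower than its partner and followed the same order of groups. In PFC of heroin rats it was 128, 136, 112, 68.0, 49.6 and 89.0 CPM (97.2 ± 34.3, SD, n = 6). In PFC of saline rats it was 111, 266, 124, 90.5, 65.7 and 63.3 CPM (120 ± 75.3, SD, n = 6), and saline replicate 8 was again the highest library. In NAc the heroin libraries gave 37.2, 77.4, 96.5, 34.9, 42.2 and 51.5 CPM (56.6 ± 24.9, SD, n = 6), and the saline libraries gave 71.9, 95.3, 119, 69.9, 49.4 and 57.2 CPM (77.1 ± 25.7, SD, n = 6). Of the heroin NAc libraries, 3 lay below every saline library. The means of both arms fell in 1 order: PFC saline, PFC heroin, NAc saline, NAc heroin, serum saline, serum heroin. Neighbours within the brain and neighbours within serum differed by less than 1 SD of the larger spread.

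**Figure D1:**
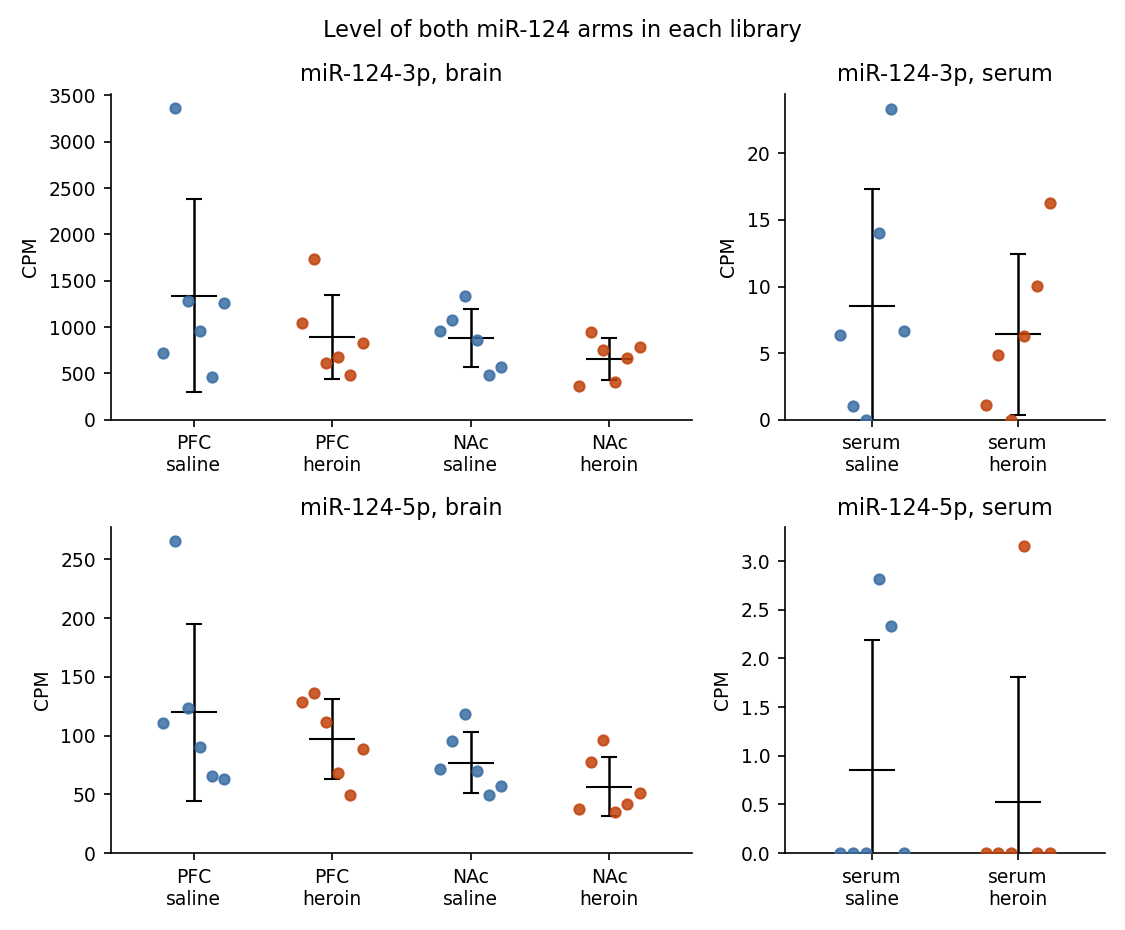
CPM of each miR-124 arm in every library, by tissue and treatment (points, replicates from left to right; horizontal bar and whiskers, mean ± SD, n = 6 per group; lower whiskers that pass below 0 are cut at the axis). PFC saline replicate 8 is the top point of both brain panels (3367 and 266 CPM), and the serum panels have their own, much smaller scale.

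Set against the other names, miR-124-3p was of moderate rank in these libraries. It ranked 75th by mean level in PFC, with 0.112% of all counts, 86th in NAc, with 0.0769%, and 311th in serum. Its nearest neighbours in PFC were miR-140-3p, at a mean of 1138 CPM, and miR-185-5p, at 1105 CPM. The 5p arm ranked 174th in PFC, 205th in NAc and 472nd in serum. Ranks and shares were taken over all names, and 31 pairs of names had counts that differed by at most 5%, such as miR-9a-5p and miR-9b-3p. Both names of a pair enter the ranks and the total.

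In serum both arms were close to the limit of detection. miR-124-3p had 3, 1, 0, 2, 5 and 10 counts in heroin replicates 1 to 6, which is 1.08, 4.85, 0, 6.31, 10.0 and 16.3 CPM. In saline replicates 7 to 12 it had 1, 1, 0, 5, 10 and 4 counts, which is 6.35, 1.00, 0, 14.1, 23.3 and 6.64 CPM. Each group thus held 21 counts in all, and the means of 6.42 ± 6.04 and 8.56 ± 8.80 CPM (SD, n = 6) lay within each other's spread. miR-124-5p had 1 count in heroin replicate 4 and 1 count in each of saline replicates 10 and 11, and 0 in the other 9 serum libraries. At these depths a level of 1 to 6 CPM in a single serum library can rest on 1 molecule.

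Whether heroin self-administration was accompanied by a different miR-124 level was asked first within each brain region. Neither arm passed the test in PFC or in NAc, and all 4 fitted differences were negative. In PFC the log2 fold change of heroin over saline was -0.40 ± 0.35 for miR-124-3p (SE, 95% interval -1.14 to 0.34, edgeR quasi-likelihood test, adjusted p = 0.995). For miR-124-5p it was -0.14 ± 0.29 (interval -0.77 to 0.48, edgeR adjusted p = 0.995). These intervals span both a fall and a small rise, so they do not show that the levels were alike. Of 455 names tested in PFC, 0 (0%) passed by edgeR, with 16 at an unadjusted p under 0.05. DESeq2 called 0 and limma 0 there.

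The PFC difference of miR-124-3p rested on saline replicate 8: without it the value was -0.03, without saline replicate 12 it was -0.40, and without both it was 0.02. Without both, that of miR-124-5p was -0.06. Leaving out 1 PFC library at a time moved the value of miR-124-3p between -0.59 and -0.03 and that of miR-124-5p between -0.27 and 0.11. In a bulk dissection, fewer neurons and less miR-124 per neuron cannot be told apart.

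In NAc the heroin over saline log2 fold change was -0.27 ± 0.23 for miR-124-3p (SE, 95% interval -0.77 to 0.22, edgeR adjusted p = 0.690) and -0.29 ± 0.25 for miR-124-5p (interval -0.83 to 0.24, edgeR adjusted p = 0.690). Leaving out single libraries kept both negative, between -0.36 and -0.16 for the 3p arm and between -0.50 and -0.18 for the 5p arm. Of 480 names, 0 (0%) passed by edgeR, with 30 at an unadjusted p under 0.05, and DESeq2 and limma each called 0.

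Whether the heroin difference was itself different in NAc and in PFC was tested as an interaction. It was 0.17 ± 0.43 on the log2 scale for miR-124-3p (NAc minus PFC, 95% interval -0.71 to 1.05) and -0.12 ± 0.38 for miR-124-5p (interval -0.91 to 0.67), with an edgeR adjusted p of 0.965 for both. No name of 506 passed (0%) by edgeR, and 19 had an unadjusted p under 0.05. DESeq2 and limma each called 0.

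In serum the low-count filter left 229 names, and neither arm was among them. The CPM of miR-124-3p was therefore compared directly, a test chosen after seeing the data: heroin minus saline was -2.14 CPM (exact two-sided permutation test, p = 0.662, n = 6 and 6). Leaving out single libraries moved it between -4.11 and 0.811 CPM, the latter without saline replicate 11, and without saline replicates 10, 11 and 12 it was 3.97 CPM (exact permutation p = 0.357). The interaction of serum against brain, in which miR-124-3p passed the filter on its brain counts alone, is given as a fitted value without a test: -0.15 ± 0.88 against PFC and 0.03 ± 0.82 against NAc on the log2 scale. Without serum saline replicates 10, 11 and 12 it was 2.42 and 2.55, with 2 saline serum counts left. Among all names, edgeR called 0 of 462 names (0%) against PFC, with 25 at an unadjusted p under 0.05, and 0 of 489 (0%) against NAc, with 39, where DESeq2 called 2 and 1.

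**Figure D2:**
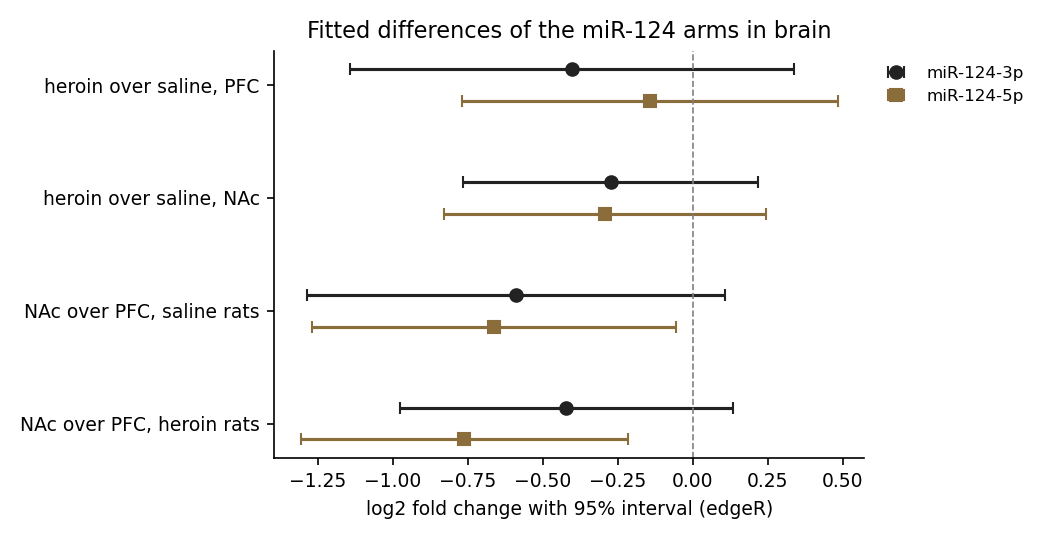
Log2 fold changes of miR-124-3p (circles) and miR-124-5p (squares) in brain, fitted by edgeR, with 95% intervals; each row is 1 comparison of 6 against 6 libraries, and the dashed line marks no difference. All 8 values are negative, and the intervals of the NAc over PFC difference of the 5p arm (-1.27 to -0.06 in saline rats, -1.31 to -0.22 in heroin rats) are the ones that leave out 0.

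Both arms were lower in NAc than in PFC in the means, and the difference was clearer for the 5p arm. In heroin rats, all 6 NAc libraries had less miR-124-5p than the PFC median and 3 had less than any PFC library. The log2 fold change of NAc over PFC was -0.76 ± 0.25 (SE, 95% interval -1.31 to -0.22, edgeR unadjusted p = 0.00942), which over all names gave an adjusted p of 0.123 and so did not pass. Over all 19 alternatives the value was negative and the adjusted p ran from 0.0206 to 0.217, and 2 of them passed. These were DESeq2 (-0.77, adjusted p = 0.0479) and an edgeR fit with replicate number as a block (adjusted p = 0.0206). The block assumes that a number marks 1 rat, which no label states. edgeR called 8 of 464 names in this comparison (1.72%).

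In saline rats the NAc over PFC log2 fold change of miR-124-5p was -0.66 ± 0.29 (SE, 95% interval -1.27 to -0.06, edgeR unadjusted p = 0.0339, adjusted p = 0.163). That of miR-124-3p was -0.59 ± 0.33 (interval -1.29 to 0.11, edgeR adjusted p = 0.276), and in heroin rats it was -0.42 ± 0.26 (interval -0.98 to 0.13, edgeR adjusted p = 0.390). None of these passed, where 33 of 467 names (7.07%) did in saline rats. Both regions were dissected from each animal per the labels, but no label ties a replicate number to a rat, so the tests treat the libraries as separate animals. Without PFC saline replicates 8 and 12 the saline value was -0.18 for the 3p arm and -0.57 for the 5p arm.

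Against serum the difference was of another order. The highest serum library had 23.3 CPM of miR-124-3p and the lowest brain library 368 CPM, and for miR-124-5p these were 3.15 and 34.9 CPM, so serum and brain did not overlap. Each arm was lower in serum than in either region in both treatments (exact two-sided permutation test of CPM, p = 0.00216 in all 8 comparisons, adjusted p = 0.00216, the smallest that 6 against 6 libraries can give). This test was chosen after seeing the data, since miR-124-3p entered the edgeR fit only through its brain counts and its edgeR p-values are not given. The fitted log2 fold change of miR-124-3p in serum over PFC was -7.41 ± 0.74 in saline rats and -7.73 ± 0.55 in heroin rats (SE), and over NAc it was -7.14 ± 0.63 and -7.86 ± 0.51. A lower level in serum was common: 51.8% of names tested passed in that direction against PFC in saline rats, 54.5% in heroin rats, 56.8% against NAc in saline rats and 59.9% in heroin rats. The median log2 fold change of all names was -1.45, -1.57, -1.91 and -2.18 in the same order. These fits tested 407 to 439 names, where 229 passed the filter on serum libraries alone. Names that entered through their brain counts could hardly come out other than lower in serum. The shares and medians are thus partly set by the filter.

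As pooled CPM, miR-124-3p was 169 times higher in PFC than in serum of saline rats (counting interval 110 to 273) and 179 times in heroin rats (117 to 290). For NAc the ratios were 113 (74.0 to 183) and 142 (92.7 to 229). For miR-124-5p, with 2 serum counts in saline and 1 in heroin rats, the PFC ratios were 167 (46.3 to 1381) and 444 (79.6 to 17534). The intervals cover counting error only. Pooling weights each library by its depth, and heroin replicate 1 held 2777850 of the 4576715 heroin serum counts. It had 1.08 CPM of miR-124-3p, against a heroin group mean of 6.42 CPM, and 0 counts of miR-124-5p. The heroin ratios therefore lean on that library. Without serum saline replicates 10, 11 and 12 the log2 fold change of miR-124-3p was -10.74 against PFC and -10.50 against NAc, with 2 counts left in 3 serum libraries, where a fitted value depends on the prior count.

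Those 3 serum libraries were all above the other 9 for 3 of 14 neuron-enriched miRNAs of a list. They were left out as a fixed set, so their height for these names may not be independent of that choice. Their mean r with the other serum libraries was 0.93, 0.92 and 0.85, against 0.90 for saline replicate 7, so this measure does not set all 3 apart. miR-9a-5p, a miRNA of neurons and their progenitors, was at 1068, 3195 and 766 CPM in saline replicates 10, 11 and 12 and between 38.1 and 146 CPM in the other 9 serum libraries. miR-127-3p, an imprinted miRNA of the Dlk1-Dio3 region, was at 388, 760 and 468 CPM against at most 163 CPM. miR-129-5p, an activity-regulated neuronal miRNA, was at 143, 417 and 193 CPM against at most 87.3 CPM. Of the list, 1 name went the other way in all 3: miR-7a-5p, at 3809, 3041 and 2430 CPM, lay below the median of the other libraries, 4935 CPM. miR-128-3p was split: saline replicate 11, at 46801 CPM, lay above the highest of the other 9, 31997 CPM. Its level in saline replicate 10, 25014 CPM, lay inside their range, and that in saline replicate 12, 10745 CPM, below their lowest, 14185 CPM. miR-124-3p did not separate these libraries: saline replicate 12, at 6.64 CPM, lay inside the range of the other 9, which reached 16.3 CPM. The part of these libraries in the serum result was not tested beyond leaving them out.

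**Figure D3:**
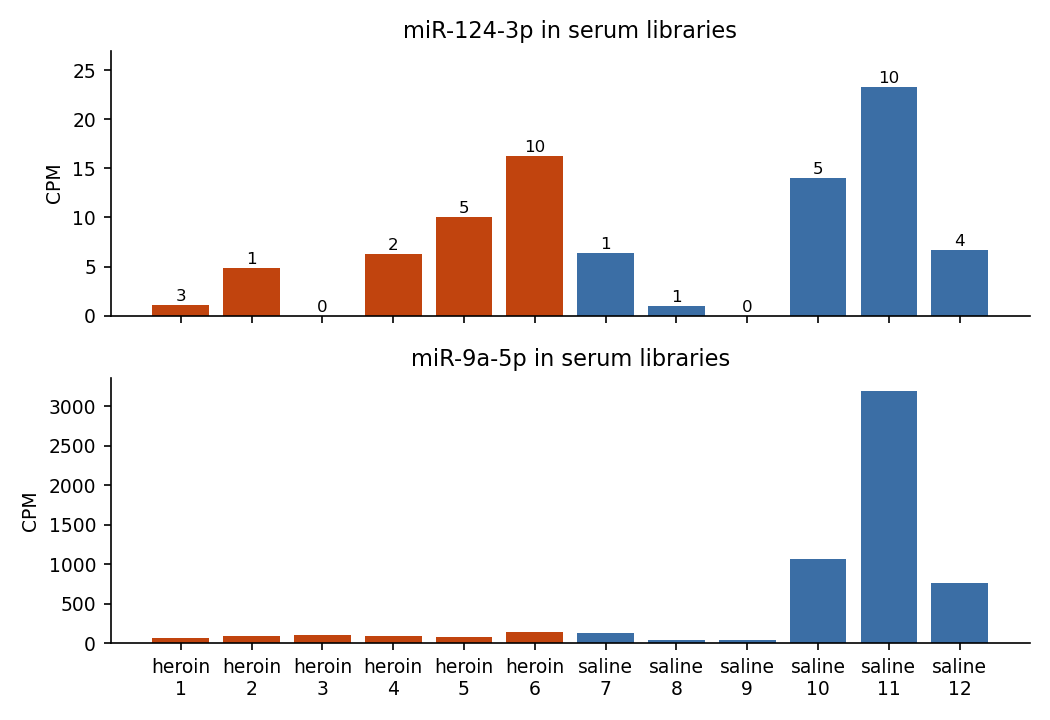
CPM of miR-124-3p (top, with the raw count above each bar) and of miR-9a-5p (bottom) in the 12 serum libraries, heroin replicates 1 to 6 and saline replicates 7 to 12. Saline replicates 10, 11 and 12 stand out for miR-9a-5p (766 to 3195 CPM) but not as a set for miR-124-3p, whose bars rest on 0 to 10 counts.

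The same 14 neuron-enriched names were read beside the arms. In serum 8 of them passed the low-count filter and 6 did not, and those 6 entered the serum over brain fits through their brain counts, so no count of calls is given. The summed level of all 14 was 310085 to 395419 CPM in PFC, 317135 to 354413 CPM in NAc and 15349 to 55303 CPM in serum. In serum most of the sum was miR-128-3p, with means of 21789 CPM in heroin and 22046 CPM in saline rats. Next came miR-7a-5p, at 3959 and 5186 CPM. The erythrocyte list ran the other way, at 27713 to 84687 CPM in serum and 70.3 to 706 CPM in brain. miR-137-3p was at 0 counts in all 12 serum libraries. For heroin over saline, 7 of the 14 had negative values in PFC and 7 in NAc, with medians of 0.04 and 0.01 and none called, against medians of all names of -0.05 and -0.07. In serum 7 of the 8 that passed the filter had negative heroin over saline values, none of them called, and miR-218a-5p was at 0.16. The median of the 8 was -0.67, against -0.08 for all 229 names tested. The lowest values were those of miR-9a-5p (-3.20), miR-127-3p (-1.64) and miR-129-5p (-1.37). For these names the saline serum libraries left out above were all higher than the other serum libraries. In saline replicates 7, 8 and 9, miR-9a-5p was at 133, 38.1 and 39.3 CPM, against a heroin mean of 96.8 CPM. There miR-127-3p was at 38.1, 56.2 and 55.9 CPM, against a heroin mean of 101 CPM. miR-129-5p was at 6.35, 9.03 and 10.3 CPM, against 51.6 CPM. No fitted values without saline replicates 10, 11 and 12 are given for these names. Between the brain regions of saline rats, miR-7a-5p was higher in NAc (2.36 on the log2 scale) and miR-128-3p lower (-1.75), both called by edgeR, and the other 12 were not called, where 7.07% of all names were. In heroin rats 0 of the 14 were called, where 1.72% of all names were. miR-7a-5p was then at 1.65 and miR-128-3p at -0.82 (edgeR adjusted p = 0.127 and 0.105).

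The library with the highest miR-124 level was at the end of the range for many names, in both directions. Of the 319 names that averaged 10 CPM or more in PFC, 125 (39.2%) had their highest PFC value in saline replicate 8, and 84 (26.3%) had it in saline replicate 12. A further 59 of the 319 had their lowest PFC value in saline replicate 8. Of the 14 neuron-enriched names, 8 were highest in saline replicate 8. Their summed level there was 395419 CPM, against 310085 to 386215 CPM in the other 11 PFC libraries. The leukocyte and microglia list was also at its highest there, at 521 CPM against 210 to 461 CPM, as was the choroid plexus and ependyma list, at 559 CPM against 336 to 505 CPM. Of their names, 2 of 5 and 1 of 4 had their highest PFC value there, and miR-150-5p held 488 of the 521 CPM. The oligodendrocyte, erythrocyte, endothelium and liver lists lay within the range of the other libraries. The part of this in the miR-124 values was not tested.

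The ratio of the arms within a library does not depend on the library's total. Of all counts of both arms, 90.6% in PFC and 91.7% in NAc belonged to miR-124-3p. In serum it was 42 of 45 counts, or 93.3% (95% exact binomial interval 81.7% to 98.6%). The count ratio of 3p over 5p ran from 5.46 to 12.7 in PFC of heroin rats (median 9.48), from 6.46 to 19.9 in PFC of saline rats (median 10.5), from 7.82 to 15.7 in NAc of heroin rats (median 11.99) and from 9.85 to 13.3 in NAc of saline rats (median 11.3). The lowest ratio was in PFC heroin replicate 3 and the highest in PFC saline replicate 12, and all 4 ranges overlapped.

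With all libraries, no difference in arm ratio passed a test. The mean log2 ratio was 3.16 ± 0.41 in PFC of heroin rats and 3.37 ± 0.59 in PFC of saline rats (SD, n = 6), a difference of -0.22 (exact two-sided permutation test, p = 0.489, adjusted p = 0.721). In NAc it was 3.56 ± 0.38 and 3.50 ± 0.17 (SD, n = 6), a difference of 0.06 (exact permutation p = 0.721, adjusted p = 0.721). NAc minus PFC in saline rats was 0.12 (exact permutation p = 0.660). The smallest p that 6 against 6 libraries can give is 0.00216. Without PFC saline replicates 8 and 12 the heroin difference in PFC was 0.09, and NAc minus PFC in saline rats was 0.43 (exact permutation p = 0.0333). In heroin rats NAc minus PFC was 0.40, for which no test was planned.

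The ratio varied less than that of most other miRNAs. Of 86 miRNAs with at least 10 counts of both arms in every brain library, miR-124 included, 75 had a larger SD of the log2 ratio over the 12 PFC libraries than the 0.50 of miR-124, and 82 had a larger one than its 0.28 in NAc. The median SD of the 86 was 0.77 in PFC and 0.56 in NAc. The heroin differences were larger in size for 55 of them in PFC and for 79 in NAc. A ratio is steadier where counts are higher, and the depth of the pairs was not matched.

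**Figure D4:**
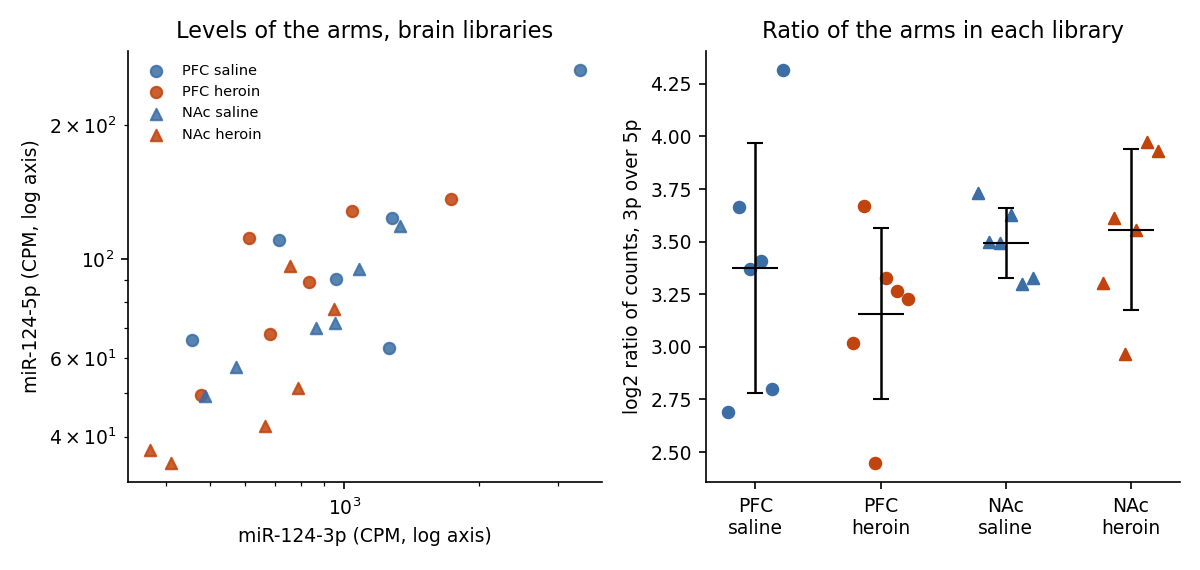
Left, CPM of miR-124-5p against miR-124-3p in the 24 brain libraries (both axes logarithmic; circles PFC, triangles NAc, colours for treatment). Right, log2 ratio of 3p over 5p counts in each library with the mean ± SD of 6. The arms rise and fall together, and PFC saline replicate 12 (ratio 19.9) and PFC heroin replicate 3 (5.46) are the extremes of the ratio.

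The arms varied together across the libraries of a region. Over the 12 NAc libraries the log2(CPM + 1) values gave a Pearson r of 0.88 (permutation p = 0.00028, adjusted p = 0.00056) and a Spearman rho of 0.84 (permutation p = 0.00099, adjusted p = 0.00198). Without the 2 libraries farthest from the median, heroin replicates 1 and 4, r was 0.78 (n = 10, permutation p = 0.00754), and within heroin and saline rats it was 0.78 and 0.96. In PFC r was 0.79 (permutation p = 0.00291, adjusted p = 0.00291) and rho 0.69 (permutation p = 0.0168, adjusted p = 0.0168). Without saline replicates 8 and 11 it was 0.54 (n = 10, permutation p = 0.111), and the relation no longer passed. Without saline replicate 8 alone r was 0.59, and without saline replicates 8 and 12 it was 0.79. Within heroin and saline rats it was 0.79 and 0.79. A shared library total moves both arms, so part of any such r is common to all names.

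The names whose level was most like that of miR-124-3p were taken by Pearson r of log2(CPM + 1) among names averaging 100 CPM or more, as a description. Libraries share depth and composition, so an r is read against the median of all names. In NAc, over 12 libraries and 181 names, the 5 closest were miR-148b-3p (r = 0.93), miR-27b-3p (0.93), miR-27a-3p (0.87), miR-340-5p (0.86) and miR-3068-3p (0.85), where the median name was at 0.33. In PFC, over 180 names, they were miR-873-5p (0.88), miR-3556a (0.88), miR-29a-3p (0.87), miR-384-3p (0.86) and miR-326-3p (0.83), with the 5p arm of miR-124 in 9th place and the median name at 0.21. The sequence of miR-3556a is the reverse complement of part of miR-29a-3p, though their mean levels in PFC differed (270 and 3223 CPM). Without PFC saline replicate 8, miR-3556a (0.85) and miR-873-5p (0.79) were 1st and 3rd, miR-326-3p was in 20th place (0.61) and the 5p arm in 22nd (0.59). Without saline replicates 8 and 12, miR-384-3p (0.88) and miR-3556a (0.87) were 4th and 5th. miR-873-5p was then in 16th place (0.80), the 5p arm in 18th (0.79), miR-29a-3p in 30th (0.68) and miR-326-3p in 36th (0.65).

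The closest names of miR-124-5p, among names averaging 10 CPM or more, shared miR-27b-3p in NAc and miR-384-3p in PFC with those of the 3p arm. In NAc they were miR-27b-3p, let-7e-3p and miR-322-3p (each r = 0.93), miR-93-5p (0.92) and miR-351-5p (0.90), with the 3p arm in 17th place among 319 names. In PFC they were miR-384-3p (0.97), miR-154-5p (0.97), miR-133a-3p (0.96), miR-133c (0.96) and miR-30b-5p (0.94), with the 3p arm in 49th place among 318 names. The counts of miR-133a-3p and miR-133c differed by 0.0026%, so they are 1 measurement. Without PFC saline replicate 8, miR-30b-5p was in 28th place (0.88) and the 3p arm in 111th (0.59), and without saline replicates 8 and 12 the 3p arm was in 77th place (0.79).

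The mature sequences of the NAc neighbours of the 3p arm and of miR-384-3p, which was close to both arms in PFC, are shown from RefSeq (GRCr8), 5′ to 3′, with the seed at bases 2 to 8 in capitals, so that shared seeds can be seen.
rno-miR-148b-3p: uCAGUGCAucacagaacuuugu
rno-miR-27b-3p: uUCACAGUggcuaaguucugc
rno-miR-27a-3p: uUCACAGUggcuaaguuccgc
rno-miR-340-5p: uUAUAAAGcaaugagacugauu
rno-miR-3068-3p: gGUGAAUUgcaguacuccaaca
rno-miR-384-3p: aUUCCUAGaaauuguucacaau
miR-27a-3p and miR-27b-3p share 1 seed, and the other 4 have a seed each.

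Over all 36 libraries the brain and serum difference sets the order. The 5 names closest to miR-124-3p were then miR-127-5p (r = 0.98), miR-127-3p, miR-9a-5p, miR-9b-3p and miR-582-3p (each 0.97), where the median of 205 names was 0.65. Those closest to miR-124-5p were miR-3588, miR-125b-5p, miR-3543, miR-434-3p and miR-496-3p, each at 0.98, with the 3p arm in 12th place among 367 names.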

How the data were processed

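Small RNA was sequenced from 36 samples, and per the labels' protocols inserts of 18 to 40 bases were selected. Per the submitters' processing notes, Bowtie and the rn6 build were used, and further settings were not given in the sources used here. Their deposited table holds read counts per miRNA name and TPM, which equals each count scaled to a library total of 1000000, so it is called CPM in the text. All 861 names were used.

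edgeR 4.0.16 (R 4.3.3) quasi-likelihood tests were run on the counts of the whole table, with TMM scaling, filterByExpr (min.count 10) and Benjamini-Hochberg adjustment over all names tested, called at 0.05. Each comparison used its own 12 libraries, and interactions 24. The code was tested on simulated data. Alternatives were DESeq2 1.42.0, limma 3.58.1 on log2(TPM + 1), other scalings and filters, a replicate block and leaving out libraries. Arm ratios used log2 of counts plus 0.5. The members and lists were chosen with earlier results of these data known. The 14 neuron-enriched names and the lists of other cell types come from general knowledge; the 5 names most like each arm were taken by r. Replicates are 6 biological samples per group, per the labels' protocols, and no pair had counts within sampling noise.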

Additional observations from a re-analysis of the deposited data

Results flagged for a closer look

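PFC saline replicate 8 stood apart from the other saline PFC libraries for both arms. miR-124-3p was at 3367 CPM there, and its gap to the next library was 0.717 of the group's range, above Dixon's critical value of 0.625 for 6 samples. miR-124-5p was at 266 CPM, with a gap of 0.702 of the range. Of 14 groups of values examined, these 2 passed, both in the same library, and chance passes about 1 in 20.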

How the results depend on the processing

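Of 310 alternative values for 22 results on the arms, 287 kept their direction and side of the threshold, 20 reversed, 3 newly passed and 0 ceased to pass. The arm correlations entered this tally by sign alone, under another pseudocount. Without PFC saline replicates 8 and 11 the PFC correlation was 0.54 (permutation p = 0.111) and no longer passed, which the tally leaves out. The serum over brain values of miR-124-3p kept their direction under every alternative run. Causes were not tested. Without PFC saline replicates 8 and 12, the heroin difference in PFC was 0.017 for miR-124-3p, its NAc minus PFC interaction was -0.32, and the arm ratio gave 0.091 for heroin in PFC and 0.43 for NAc minus PFC in saline rats. Without PFC heroin replicate 5, miR-124-5p in PFC was 0.031. With limma the interaction of NAc minus PFC for miR-124-3p was -0.0071. Its serum minus PFC interaction was 0.31 with library size alone, 0.16 without a filter, 0.21 with limma, 0.015 without PFC heroin replicate 5 and 2.42 without serum saline replicates 10, 11 and 12. Its serum minus NAc interaction was -0.39 without a filter, -0.34 with DESeq2, -0.11 with repeated names counted once and 2.55 without serum saline replicates 10, 11 and 12. The serum CPM difference was 3.97 without saline replicates 10, 11 and 12.

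Leaving out single libraries gave -0.27 to 0.11 for the heroin difference of miR-124-5p in PFC, -0.022 to 0.18 for the arm ratio of heroin in NAc, -0.015 to 0.31 for that of NAc minus PFC in saline rats and -4.11 to 0.811 CPM for miR-124-3p in serum.

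Names called for NAc over PFC in saline rats were 33 with edgeR as reported, 58 with DESeq2, 56 without PFC saline replicates 8 and 12 and 25 to 52 with single libraries left out. In heroin rats they were 8, against 34 with DESeq2, 13 with limma, 26 without PFC heroin replicate 5 and 6 to 38 with single libraries left out. DESeq2 called 2 and 1 names for the serum interactions with PFC and NAc, where edgeR called 0.

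The same replicate numbers recur in all tissues. Same-numbered PFC and NAc libraries deviated together at r of -0.17 to 0.49 in saline and -0.15 to 0.74 in heroin rats. This r was over 0.1 in 4 and 5 of 6. A NAc library correlated best with the PFC library of its own number in 2 of 6 saline and 4 of 6 heroin numbers. These values do not settle whether a number marks the same rat. No label states it, so the libraries were not taken as pairs. By number alone, NAc was below PFC in 6 of 6 for miR-124-5p in both treatments, and in 3 of 6 saline and 4 of 6 heroin numbers for miR-124-3p. With a replicate block the NAc over PFC value of miR-124-5p in heroin rats was -0.79 (adjusted p = 0.0206) and 53 names were called; with DESeq2 it was -0.77 (adjusted p = 0.0479).

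Depth limits serum: 21 counts of miR-124-3p per group, and at most 1 count of miR-124-5p per library.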

Other observations

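The table holds 31 pairs of names whose counts differ by at most 5%, and neither miR-124 arm is in one. Of 30 pairs with both sequences in RefSeq (GRCr8), 29 are reverse complements of each other over at least 14 bases and 1 is on the same strand. Several of the names most like miR-124 over all libraries are such pairs, as are miR-133a-3p and miR-133c in PFC, so each pair is 1 measurement. Capitals mark the run that is the reverse complement of the other name, 5′ to 3′.
rno-miR-125b-5p: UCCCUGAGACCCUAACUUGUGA
rno-miR-3588: UCACAAGUUAGGGUCUCAGGGA
rno-miR-9a-5p: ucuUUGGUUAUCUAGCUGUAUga
rno-miR-9b-3p: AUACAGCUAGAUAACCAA
The counts of miR-125b-5p and miR-3588 differed by 1.51%, and those of miR-9a-5p and miR-9b-3p by 0.18%. Whether reads were assigned without regard to strand is not given in the sources used here.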
